A study of Mus musculus with 7 samples.

Results

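Krt6a, Krt6b, Krt75, Krt16 and Krt17 are among the keratins made in the follicles of mouse skin, and all but Krt75 are also known from injured epidermis. They make up 5 of the 56691 genes in the deposited count table and 5 of its 54 keratin genes. They were chosen by gene name with their levels in knockout and wild-type skin already known. Their differences between genotypes are therefore given as a description, and nothing is read from a test of them. Of the 5, 4 had enough counts for the comparison across all genes, and Krt6b did not. The material was skin of healthy appearance from 3 mice lacking Tuft1 (KO mice 2, 3 and 4) and skin from 4 wild-type mice (WT mice 5, 6, 7 and 8), with 1 library per mouse. Tuft1 encodes tuftelin 1, which the study links to desmosomes. The labels give no age, strain, body site or design of the deleted allele.

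Keratins form filaments from pairs of a type I and a type II protein, and the filaments are anchored at desmosomes. Krt6a, Krt6b and Krt75 encode type II keratins, and Krt16 and Krt17 encode type I keratins. Krt6, Krt16 and Krt17 are made in follicles, nail beds and footpads, and are induced in epidermis after wounding, which gave them the name stress keratins. Krt75 was described in the companion layer, a sheet of cells between the outer and the inner root sheath of the follicle. In humans, mutations of KRT6A, KRT6B, KRT16 or KRT17 cause pachyonychia congenita, a disease of thick nails and painful thickened soles.

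In the mm39 build the type II members lie on the minus strand of chromosome 15. Krt75 spans 101471780 to 101482339, Krt6b spans 101584458 to 101588722, and Krt6a spans 101598345 to 101602742. Only 9.62 kb separate Krt6b from Krt6a, and Krt5 follows 12.8 kb after Krt6a. The type I members lie on the minus strand of chromosome 11, with Krt16 at 100136917 to 100139728 and Krt17 at 100147043 to 100151855. All 54 keratin genes of the table lie on these 2 chromosomes, 27 on each.

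The libraries read the 3' ends of transcripts, so whether 2 keratins can be told apart depends on their last bases. The Krt6a and Krt6b coding sequences were 97.6% identical over 1665 aligned positions in GENCODE M21 (GRCm38). Their last 120 coding bases, stop codon included, are shown because they carry this likeness, with capitals marking bases that differ or have no partner in the other gene.
Krt6a: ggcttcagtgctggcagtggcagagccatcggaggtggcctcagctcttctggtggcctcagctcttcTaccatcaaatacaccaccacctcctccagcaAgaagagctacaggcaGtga
Krt6b: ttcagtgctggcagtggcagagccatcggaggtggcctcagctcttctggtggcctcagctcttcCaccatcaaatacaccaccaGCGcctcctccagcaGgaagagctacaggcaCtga
Beyond the stop codon, Krt6a has 557 bases and Krt6b has 506. The last 500 bases of the 2 transcripts were 68.3% identical, and 0 of their 451 windows of 50 bases occurred in a transcript of any other gene. Krt75 had none either. The 3' ends of Krt6a and Krt6b thus differ far more than their coding sequences. The sources used here give no read length.

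The type I members share more near their ends, because only 143 bases follow the stop codon in Krt16 and 185 in Krt17. Of 451 windows of 50 bases, 43 in Krt17 occurred in Krt14, the keratin of basal cells, and 6 in Krt16. The longest stretch shared with Krt14 is 71 coding bases that end 312 bases before the end of the Krt17 transcript. It is shown because reads within it could come from either gene. A run of 55 bases within it also occurs in Krt16, so reads there could come from that gene too.
Krt17: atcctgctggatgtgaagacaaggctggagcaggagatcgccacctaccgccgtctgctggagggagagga
In Krt16, 76 of 451 windows occurred elsewhere, 70 of them in the predicted gene Gm11597, which had 0 counts in all libraries. Exons of 3 members overlap exons of annotated genes on the other strand, all of them with 0 counts.

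The KO libraries held 7846643, 9086523 and 7009237 counts in mice 2, 3 and 4, and the WT libraries held 8490972 to 9256459 counts. Levels are given as CPM, counts scaled by a library size that TMM adjusts for composition. With 3'-end reads they do not grow with transcript length, so levels of different genes are set side by side directly. Tuft1 was at 19.9, 29.1 and 17.2 CPM in KO mice 2, 3 and 4, against 106, 104, 55.6 and 114 CPM in WT mice 5, 6, 7 and 8 (log2 fold change -2.10, SE 0.39, edgeR adjusted p = 0.172). Whether its 3' end lies in the deleted part is not given in the labels. The epidermal keratins Krt5, Krt14, Krt1 and Krt10 and the dermal collagens Col1a1 and Col3a1 were at 435 CPM or more in each library, so the markers of skin were present. Across all genes, edgeR's quasi-likelihood test called 3 of 12888 (0.0233%) at a Benjamini-Hochberg adjusted p under 0.05, of which 2 were higher (0.0155%) and 1 lower (0.00776%) in KO skin. Krt6a is among those higher, which its choice on this contrast already used, so nothing is read from it. At an unadjusted p under 0.05 there were 221 higher (1.71%) and 334 lower (2.59%) of 12888, the background for such counts in the gene lists.

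KO skin held 5.00 times the Krt6a and 7.77 times the Krt16 of WT skin by their means, while Krt17 and Krt75 overlapped between the genotypes and Krt6b was seen in 1 KO mouse. Krt6a and Krt16 are the 2 of 4 tested members whose KO range lay wholly above the WT range, as did 3.44% of all genes tested. A further 3.45% had a KO range wholly below, 6.89% in all, and since the contrast chose the members nothing is read from this either. In bulk skin, a larger number of cells of a type and more RNA per cell cannot be told apart.

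Krt6a, the type II stress keratin, stood at 721, 322 and 481 CPM in KO mice 2, 3 and 4, from 5571, 2878 and 3657 counts. In WT mice 5, 6, 7 and 8 it stood at 74.0, 74.3, 135 and 124 CPM, from 687, 660, 1100 and 999 counts. The lowest KO mouse was above the highest WT mouse, and the coefficient of variation among mice was 39.5% in KO and 31.7% in WT skin. The means were 508 ± 201 CPM (SD, n = 3) in KO and 102 ± 32.2 CPM (SD, n = 4) in WT skin, and the fitted log2 fold change was 2.32 (SE 0.31). It was 1.98 (SE 0.32) without KO mouse 2, which had the highest level.

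Krt16, a type I partner of the Krt6 proteins, was scarce in WT skin. It stood at 59.7, 20.9 and 18.8 CPM in KO mice 2, 3 and 4, from 461, 187 and 143 counts. In WT mice 5, 6, 7 and 8 it stood at 0, 1.80, 9.08 and 6.19 CPM, from 0, 16, 74 and 50 counts. Every KO mouse was above every WT mouse, and KO mouse 2 was again highest. The means were 33.1 ± 23.0 CPM (SD, n = 3) in KO and 4.27 ± 4.13 CPM (SD, n = 4) in WT skin, and the log2 fold change was 2.95 (SE 1.29). It was 2.21 (SE 1.85) without KO mouse 2. A count of 0 in WT mouse 5 allows a level of up to 0.323 CPM, taking 3 counts as the limit and counting error only.

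Krt17, a type I keratin of the outer root sheath, was the most abundant member in both genotypes. It stood at 927, 666 and 881 CPM in KO mice 2, 3 and 4, against 735, 609, 589 and 472 CPM in WT mice 5, 6, 7 and 8. KO mouse 3 fell below WT mouse 5, so the ranges overlapped. The means were 825 ± 139 CPM (SD, n = 3) in KO and 601 ± 108 CPM (SD, n = 4) in WT skin. The fit gave a log2 difference of 0.46 (SE 0.21), and the coefficient of variation was 16.9% in KO and 17.9% in WT skin, the lowest among the 4 tested members.

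Krt75, the companion-layer keratin, varied widely among mice of the same genotype, with a coefficient of variation of 72.8% in KO and 51.7% in WT skin. It stood at 23.6, 58.0 and 120.2 CPM in KO mice 2, 3 and 4, against 40.4, 25.2, 78.4 and 35.6 CPM in WT mice 5, 6, 7 and 8. The highest and the lowest value of all 7 mice were both in KO skin. The means were 67.3 ± 49.0 CPM (SD, n = 3) in KO and 44.9 ± 23.2 CPM (SD, n = 4) in WT skin. The log2 fold change of 0.58 (SE 0.54) changed sign to -0.15 without KO mouse 4.

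Krt6b had 408 counts in KO mouse 2, or 52.8 CPM, and 0 counts in KO mice 3 and 4 and in the 4 WT mice. In KO mouse 2 its counts were 7.32% of those of Krt6a. In the other 6 libraries the limit of 3 counts equals 0.0820% to 0.455% of Krt6a, for counting error only. Whether the ratio seen in mouse 2 held there cannot be told from these zeros. Zeros beside high counts were frequent in these libraries: of 12226 genes that reached 100 counts in some library, 4036 had 0 in another.

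**Figure D1:**
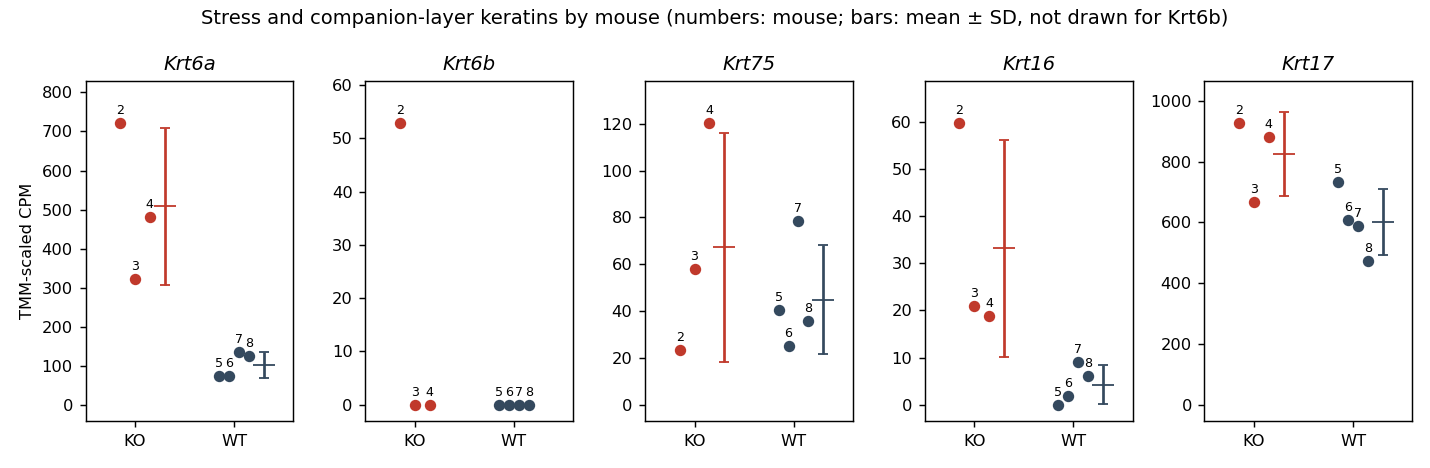
Level of each of the 5 keratins in each mouse (TMM-scaled CPM, linear axis from 0 for each gene), KO left and WT right, with points numbered by mouse and bars giving mean ± SD (not drawn for Krt6b). Krt6a and Krt16 separate the genotypes, Krt17 and Krt75 overlap, and Krt6b has counts only in KO mouse 2.

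By mean level, the order in WT skin was Krt17, Krt6a, Krt75, Krt16 and Krt6b. Krt6a at 74.0 to 135 CPM and Krt75 at 25.2 to 78.4 CPM overlapped in range, although Krt6a was the higher in each WT mouse. In KO skin Krt17 and Krt6a overlapped in range, although Krt17 was the higher in each KO mouse. The ranges of Krt75, Krt16 and Krt6b overlapped too, although Krt16 was above Krt6b in each KO mouse. Among the 54 keratin genes Krt6a ranked 8 by mean level in KO and 11 in WT skin, and Krt17 ranked 7 in both.

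The make-up of the group is described from the same counts whose contrast chose the members, so nothing is read from its differences between genotypes. The 5 genes took 8.42%, 5.73% and 7.88% of all keratin counts in KO mice 2, 3 and 4, against 3.78%, 3.356%, 3.85% and 3.59% in WT mice 5, 6, 7 and 8. All keratins together took 1.83% to 2.09% of the counts in KO and 1.69% to 2.25% in WT libraries, ranges that overlap. Within the group, Krt6a made up 30.2% to 40.4% of counts in KO and 8.71% to 19.4% in WT mice. Krt17 made up 52.0% to 62.4% in KO and 72.6% to 86.5% in WT mice. There were 0.778, 0.484 and 0.546 counts of Krt6a per count of Krt17 in KO mice 2, 3 and 4, against 0.101, 0.122, 0.229 and 0.262 in WT mice 5, 6, 7 and 8. The counts of type II members per count of type I members were 0.554 to 0.808 in KO and 0.156 to 0.357 in WT mice.

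**Figure D2:**
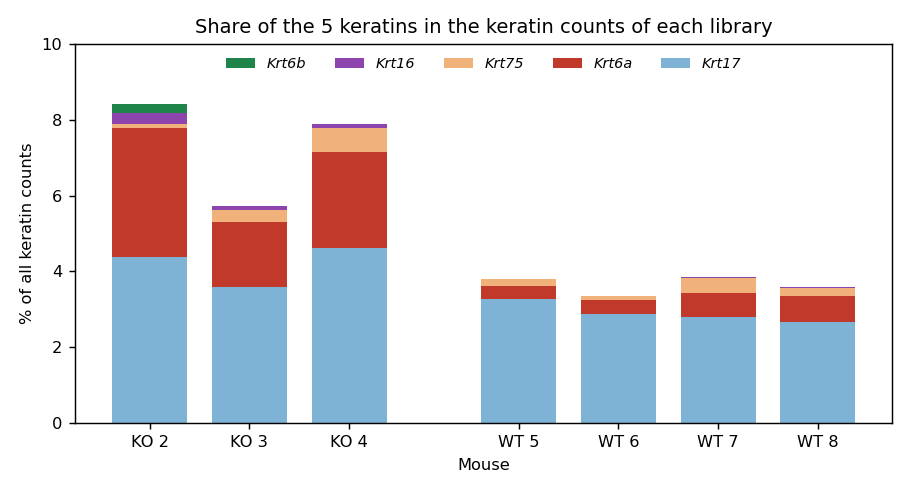
Counts of the 5 keratins as a percentage of all keratin counts in each library, stacked by gene, KO left and WT right. The stack is 5.73% to 8.42% high in KO mice and 3.356% to 3.85% in WT mice, and most of the added height is Krt6a.

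The members were also set against Krt14 and Krt5, the keratin pair of basal cells. These ratios reuse the member counts of the contrast that chose the members, so nothing further is read from them. The ranges of Krt6a and Krt16 lay apart between the genotypes, and for Krt17 it depended on the gene chosen. There were 195 to 321 counts of Krt6a per 1000 of Krt14 in KO and 30.7 to 81.0 in WT mice, and 78.7 to 204 per 1000 of Krt5 in KO and 16.3 to 35.6 in WT mice. Krt16 stood at 10.98 to 26.6 per 1000 of Krt14 in KO and 0 to 5.45 in WT mice. Krt75 stood at 10.5 to 70.2 per 1000 of Krt14 in KO and 13.2 to 47.1 in WT mice, with overlap. Krt17 stood at 403 to 514 per 1000 of Krt14 in KO and 294 to 353 in WT mice, without overlap. Per 1000 of Krt5 it stood at 160.5 to 263 in KO and 136 to 176 in WT mice, with overlap.

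Of 14 tested keratins outside the group, 7 had a log2 fold change above 0 and 7 below, with a median of 0.06, and edgeR's quasi-likelihood test called 0. The KO range lay wholly above the WT range in 2 of the 14 (Krt79 and Krt78), against 3.44% of all genes tested. It lay wholly below in 2 (Krt80 and Krt23), against 3.45% of all genes tested. Separate ranges were thus also seen in keratins outside the group, some of them by a narrow gap. Krt78 was at 49.5 CPM or more in KO and up to 49.3 CPM in WT mice. Krt23 was at up to 216 CPM in KO and 223 CPM or more in WT mice. In the list of other epidermal keratins, 11 of 14 were tested, 0 were called in either direction and the median was 0.15, against -0.01 over all 12888 genes. At an unadjusted p under 0.05 there were 1 higher and 3 lower of 11, against 1.71% higher and 2.59% lower of all genes. Krt79, a keratin of follicle openings and sebaceous ducts, was at 269 ± 43.9 CPM in KO and 120.3 ± 31.9 CPM in WT skin (log2 fold change 1.16, SE 0.26, edgeR adjusted p = 0.331). Krt23 was at 188 ± 42.2 CPM in KO and 319 ± 107 CPM in WT skin (log2 fold change -0.76, SE 0.29, edgeR adjusted p = 1.00). Krt14 was at 1870 ± 327 CPM in KO and 1897 ± 364 CPM in WT skin, and Krt5 at 4372 ± 1009 CPM in KO and 3816 ± 506 CPM in WT skin.

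**Figure D3:**
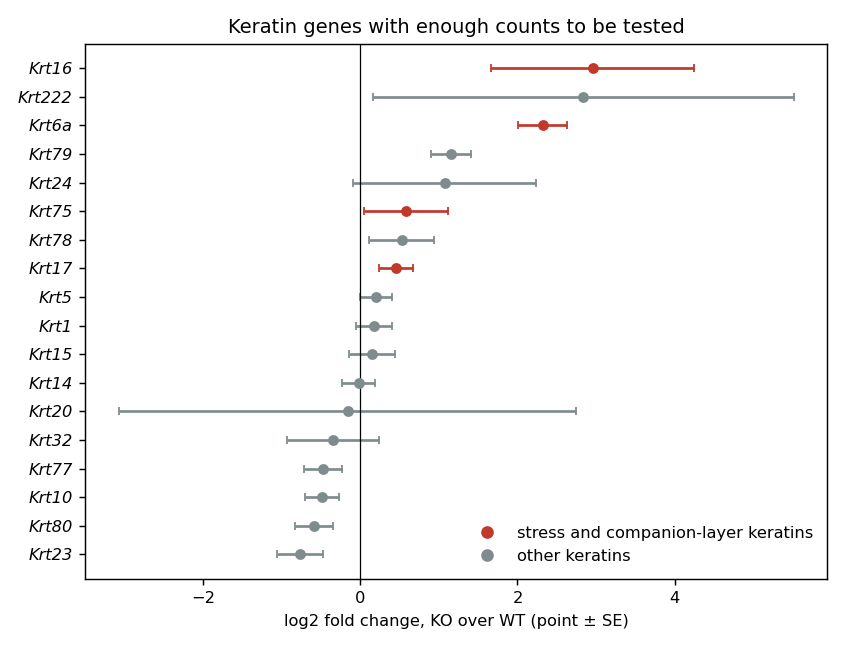
Log2 fold change of KO over WT with its standard error for the 18 keratin genes tested, sorted by value, with the stress and companion-layer keratins in red. Krt16 and Krt6a lie at 2.95 and 2.32, and Krt14 lies at -0.02.

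KO mouse 2 stood apart in hair genes, and its values touch every member. It had counts for 18 keratin genes that had none in the other 6 libraries, Krt6b among them. Of 48 genes with at least 100 counts in this library and 0 in all others, 30 were keratins or keratin-associated proteins. The other libraries had 7 to 54 such genes and 0 keratins or keratin-associated proteins among them.

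The 9 inner root sheath genes, which encode the sheath next to the companion layer, summed to 633 CPM in KO mouse 2. They summed to 0 and 10.3 CPM in KO mice 3 and 4 and to 0 to 9.41 CPM in WT mice. Of these 9 genes, 8 had counts in KO mouse 2, and 0 or 1 in every other library. Krt71 and Krt25, named after their values were seen, were at 123 and 133 CPM in KO mouse 2 and had 0 counts elsewhere. Hair shaft keratins summed to 331 CPM in KO mouse 2, to 28.3 and 33.3 CPM in KO mice 3 and 4 and to 20.2 to 50.3 CPM in WT mice. Keratin-associated proteins, which cross-link the hair shaft, summed to 984 CPM in KO mouse 2, to 53.3 and 39.6 CPM in KO mice 3 and 4 and to 33.8 to 90.2 CPM in WT mice. Few of these genes could be tested: 1 of 9 inner root sheath genes, 1 of 15 hair shaft keratins, 3 of 58 keratin-associated proteins and 1 of 7 simple epithelial keratins, with 0 calls by edgeR. At an unadjusted p under 0.05 there was 1 higher of these 6, against 1.71% of all genes. It was the inner root sheath gene Tchh, which encodes trichohyalin and was at 239, 0 and 10.3 CPM in KO mice 2, 3 and 4 and at 0 to 9.41 CPM in WT mice.

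Krt6b, Krt6a, Krt16 and Krt17 were highest in this mouse, and Krt75 was lowest. The part of these hair genes in the levels of the 5 keratins was not tested.

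**Figure D4:**
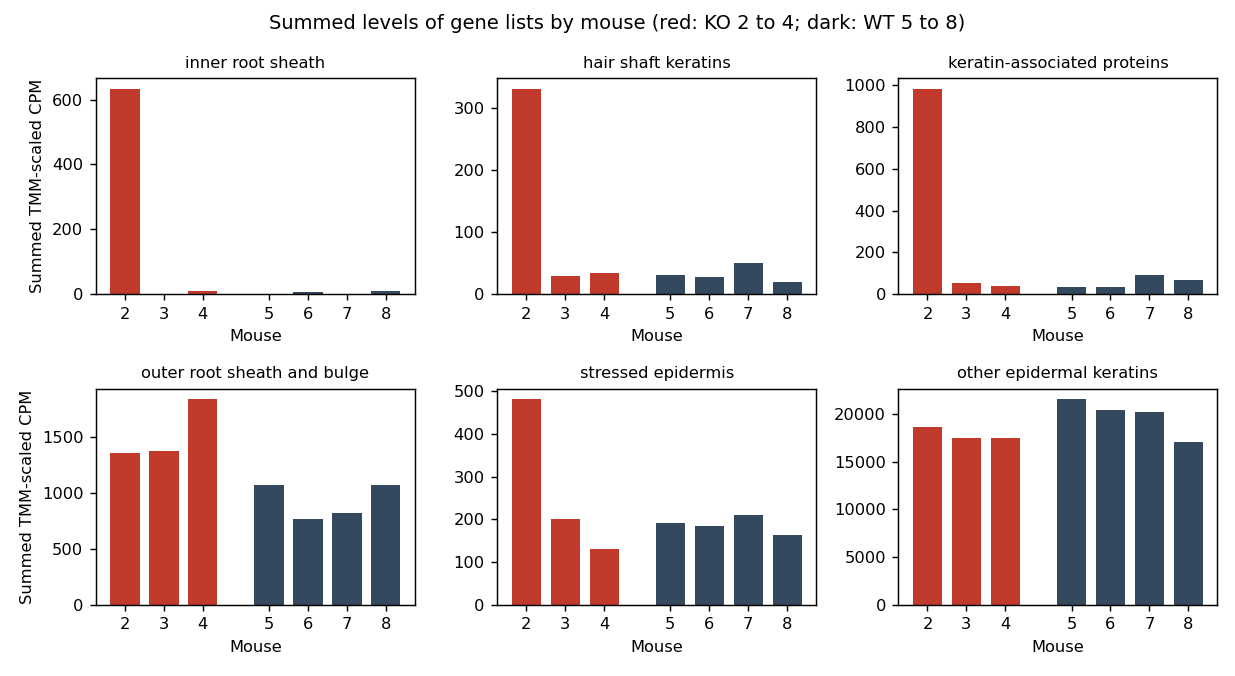
Summed TMM-scaled CPM of 6 gene lists in each mouse, KO mice 2 to 4 in red on the left and WT mice 5 to 8 in dark on the right, each panel with its own axis from 0. KO mouse 2 stands apart in inner root sheath, hair shaft, keratin-associated and stressed epidermis genes, with 633, 331, 984 and 481 CPM.

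Outer root sheath and bulge genes mark the follicle cells in which Krt17 and Krt6a are also made. Their sum was 1359, 1372 and 1834 CPM in KO mice 2, 3 and 4, against 1072, 765, 822 and 1073 CPM in WT mice 5, 6, 7 and 8, without overlap. Of 13 tested genes of 14 listed, 12 had a log2 fold change above 0, with a median of 0.58 against -0.01 over all genes. EdgeR called 0 in either direction, with 4 higher and 0 lower of 13 at an unadjusted p under 0.05, against 1.71% higher and 2.59% lower of all genes. Lhx2, a transcription factor of follicle stem cells, was at 90.7, 123 and 209 CPM in KO mice 2, 3 and 4, against 48.1, 10.5, 36.6 and 29.1 CPM in WT mice 5, 6, 7 and 8. Its log2 fold change was 2.18 (SE 0.46, edgeR adjusted p = 0.329). Sox9, which specifies the outer root sheath, was at 500.2 ± 209 CPM in KO and 214 ± 67.3 CPM in WT skin (log2 fold change 1.23, SE 0.30, edgeR adjusted p = 0.503). The part of follicle content in the keratin levels was not tested.

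Among genes of wounded or inflamed epidermis, 13 of 36 had enough counts to be tested, 7 with a log2 fold change above 0 and 6 below, at a median of 0.07. EdgeR called 0, with 1 of 13 higher at an unadjusted p under 0.05, against 1.71% of all genes. Sprr1a, a cornified envelope precursor of stressed epidermis, was at 270.1, 67.2 and 36.7 CPM in KO mice 2, 3 and 4, against 44.1, 36.7, 64.9 and 38.6 CPM in WT mice 5, 6, 7 and 8. Only KO mouse 2 stood well above the other 6 mice (log2 fold change 1.44, SE 0.54, edgeR adjusted p = 1.00). Il33, an alarmin cytokine, was at 23.9 ± 4.04 CPM in KO and 40.2 ± 9.42 CPM in WT skin (log2 fold change -0.75, SE 0.50, edgeR adjusted p = 1.00). The list summed to 481, 201 and 131 CPM in KO mice 2, 3 and 4, against 163 to 210 CPM in WT mice.

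The EGF receptor and AP-1 act upstream of stress keratin transcription. Of 17 tested genes for the EGF receptor, its ligands and the AP-1 factors, 15 had a log2 fold change below 0 and 2 above, with a median of -0.64 against -0.01 over all genes. EdgeR called 0, with 5 of 17 lower at an unadjusted p under 0.05, against 2.59% of all genes. The median was also -0.64 with Areg set at its limit. Areg, which encodes the EGF receptor ligand amphiregulin, had 0 counts in the 3 KO libraries, against 32.1, 7.77, 39.3 and 0 CPM in WT mice 5, 6, 7 and 8. With each KO library set to 3 counts, the WT mean of Areg was 53.0 times the KO mean. That limit covers counting error only, and WT mouse 8 was at 0 like the KO mice. EdgeR did not call Areg (adjusted p = 0.729). Fos, an AP-1 subunit, was at 104.8, 14.2 and 126 CPM in KO mice 2, 3 and 4, against 565, 288, 459 and 113 CPM in WT mice 5, 6, 7 and 8 (log2 fold change -2.13, SE 0.64, edgeR adjusted p = 0.793). WT mouse 8 lay within the KO range for Fos. The list summed to 1194, 1354 and 1213 CPM in KO mice 2, 3 and 4. It summed to 3965, 1965, 3208 and 1100 CPM in WT mice 5, 6, 7 and 8, so WT mouse 8 lay below every KO mouse.

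EdgeR called 0 genes in the other regulator and cell state lists too, and at an unadjusted p under 0.05 only the cornified envelope list held any, 1 higher and 2 lower of 14, against 1.71% higher and 2.59% lower of all genes. Among NRF2 and its antioxidant targets, 8 of 12 tested genes lay below 0 (median -0.23), and Nfe2l2, which encodes NRF2, was at 29.6 ± 20.2 CPM in KO and 57.1 ± 26.0 CPM in WT skin. Srxn1, which encodes the antioxidant enzyme sulfiredoxin, was at 32.3 ± 30.0 CPM in KO and 64.3 ± 23.7 CPM in WT skin. Among other transcription factors reported upstream of these keratins, 8 of 11 lay below 0 (median -0.26). Trp63, which maintains basal keratinocytes, was at 94.2 ± 13.7 CPM in KO and 141 ± 53.5 CPM in WT skin. Nfkb1, which encodes an NF-kappaB subunit, was at 63.1 ± 30.1 CPM in KO and 41.1 ± 4.61 CPM in WT skin. Among cell cycle genes, 13 of 20 lay below 0 (median -0.20), and Mki67, a marker of dividing cells, was at 9.45, 0 and 0 CPM in KO mice 2, 3 and 4 and at 5.82 to 20.9 CPM in WT mice. Mcm2, which encodes a subunit of the replicative helicase, was at 57.9 ± 21.4 CPM in KO and 35.7 ± 22.9 CPM in WT skin. Among cornified envelope genes, 11 of 14 lay below 0 (median -0.46). They summed to 9502 to 14095 CPM in KO and 14803 to 19253 CPM in WT mice, without overlap. Flg, which encodes filaggrin, was at 146 ± 20.8 CPM in KO and 68.5 ± 15.3 CPM in WT skin, and Lor, which encodes loricrin, was at 4065 ± 384 CPM in KO and 6170 ± 1385 CPM in WT skin (edgeR adjusted p = 0.519 for Flg and 0.979 for Lor).

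**Figure D5:**
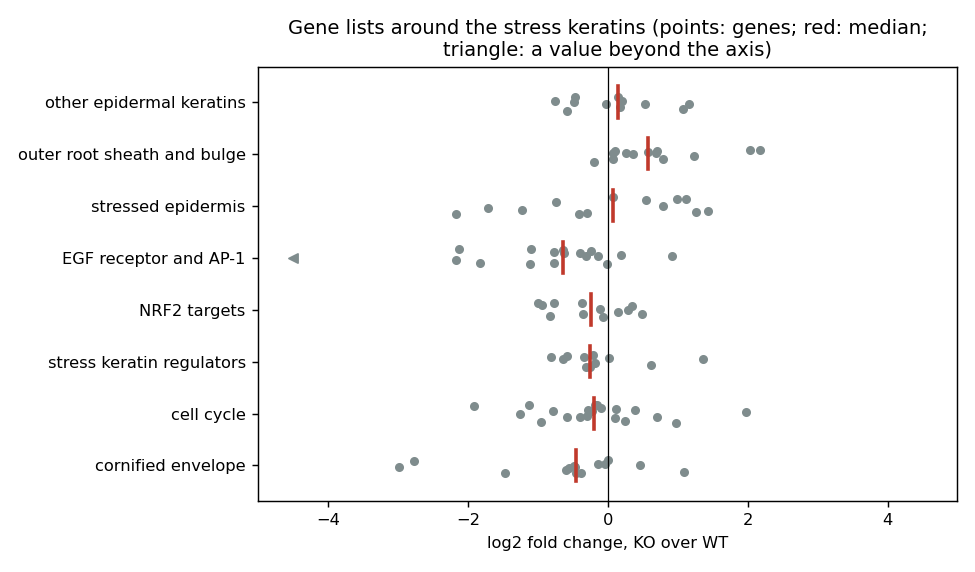
Log2 fold change of KO over WT for each tested gene of 8 lists, with the list median in red and a triangle for Areg, whose fitted value lies beyond the axis and is no bound. Medians run from -0.64 for EGF receptor and AP-1 genes to 0.58 for outer root sheath and bulge genes.

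EdgeR called 0 markers of other tissue parts. At an unadjusted p under 0.05 there were 8 lower of 9 fat, 2 lower of 4 red cell, 1 higher of 8 muscle and 1 higher of 7 sebaceous markers, and 0 of 5 melanocyte and 10 leukocyte markers, against 1.71% higher and 2.59% lower of all genes. Summed fat cell markers were at 2134 to 4399 CPM in KO and 5902 to 10120 CPM in WT mice, without overlap, and 9 of 9 lay below 0 (median -1.45). Summed skeletal muscle markers were at 13714 to 22319 CPM in KO and 13240 to 18554 CPM in WT mice. Leukocyte markers were at 392.5 to 768 CPM in KO and 397 to 553 CPM in WT mice. Melanocyte markers were at 73.3 to 95.1 CPM in KO and 4.05 to 63.4 CPM in WT mice, without overlap. Sebaceous markers were at 1165 to 3056 CPM in KO and 1301 to 1835 CPM in WT mice, and red cell markers at 250.1 to 761 CPM in KO and 456 to 1451 CPM in WT mice. Their part in the keratin levels was not tested.

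Genes with profiles most like each member were found among 9531 named genes with an average log2 CPM of at least 3. Likeness was the root-mean-square difference of log2 CPM over the 7 libraries, each gene centred on its own mean. Closest to Krt6a was Tmem164, at a difference of 0.46 where the Krt6a profile itself spread by 1.22. Tmem164 was at 119, 71.1 and 164 CPM in KO mice 2, 3 and 4, against 24.98, 31.0, 41.6 and 52.0 CPM in WT mice 5, 6, 7 and 8. Eef1akmt1 and Ap4s1 followed, at 0.51 and 0.52. Closest to Krt17 were Mrps17, Kdm2a and Tgfbi (0.11, 0.12 and 0.13, own spread 0.32). Closest to Krt75 were Dock5, Dnpep and Sf3a2 (0.26, 0.28 and 0.30, own spread 0.80), and closest to Krt16 was Rbm48 (0.78, own spread 2.43). Between members the differences were larger: 0.82 for Krt75 and Krt17, 1.03 for Krt6a and Krt17, 1.30 for Krt6a and Krt75, and 1.496 for Krt6a and Krt16. Each tested member had its closest profile outside the group, but that was picked from 9531 genes, against only the few other members within it. So unequal a choice favours genes outside, and nothing is read from it. The likeness is a description over 7 libraries that share the genotype contrast.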

How the data were processed

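Per the labels' protocols, RNA from powdered frozen skin was extracted with TRIzol and made into QuantSeq 3' mRNA libraries. The authors deposited whole-number counts per gene, and the tools in the submitters' processing notes are edgeR 3.36.0, featureCounts, GATK 4.2.4.0, STAR and Subread 2.0.3, with the mm39 build. The sources used here do not give strand use, read length or duplicate removal. The authors' other table of log2 CPM values for 12954 genes was recovered from the counts (TMM factors, prior count 2) within 1e-09 for all 90678 values, and used only for that check.

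Counts were fitted in edgeR 4.0.16 (R 4.3.3): default expression filter (minimum 10 counts), TMM factors, quasi-likelihood F test of KO against WT, and Benjamini-Hochberg adjustment over 12888 genes, called under 0.05. The standard error comes from the F statistic. The script was tested on simulated data with less spread between libraries than here, where edgeR's biological coefficient of variation was 107.7%. That test therefore gives no error rate for these 7 libraries. Mouse numbers are not shared between groups, so no block was fitted. Samples were grouped by the genotype in their titles.

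The members and lists were chosen with earlier results of these data known. Genes named beside the members are up to 3 called genes of each list, or up to 2 with the smallest p where none was called, and the 3 genes most like each tested member (for Krt16 the closest is given, and the others are not reported here). Alternatives were DESeq2 1.42.0 size factors and Wald test, limma 3.58.1 voom, other TMM genes, total counts, other filters, leaving out each mouse, and summing Krt6a with Krt6b and Krt16 with Krt17. The limit of 3 counts was 0.323 to 0.395 CPM by library and covers counting error only, since PCR copies cannot be counted apart. Transcript sequences are from GENCODE M21 (GRCm38), and no coordinates of that build are used. The RefSeq promoter table held 1 of the 5 members, and no promoter is shown.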

Additional observations from a re-analysis of the deposited data

Results flagged for a closer look

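Of 50 sets of 4 WT values looked at, for the members, Tuft1, the named list genes and the genes most like the members, 1 held a mouse far from the other 3, and chance gives about 1 in 20. This was Tuft1, with a log2 CPM of 5.80 for WT mouse 7 and 6.702 to 6.84 for the other WT mice. Krt6a, Krt75, Krt16 and Krt17 showed no such WT mouse, and Krt6b, at 0 counts in WT skin, was not looked at. Groups of 3 mice, as the KO mice are, were not looked at either.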

How the results depend on the processing

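No paired analysis was possible because the groups share no replicate number. The fold changes of Krt6a, Krt16 and Krt17 kept their sign in all alternatives run, and that of Krt75 did so except without KO mouse 4. Leaving out 1 mouse gave 1.98 to 2.56 for Krt6a, 2.21 to 3.63 for Krt16, 0.36 to 0.59 for Krt17 and -0.15 to 0.99 for Krt75. The 7 other settings gave 2.30 to 2.39, 2.95 to 4.23 (the highest with limma-voom), 0.44 to 0.51 and 0.43 to 0.70 in the same order. Counts summed over Krt6a and Krt6b gave 2.37, and over Krt16 and Krt17 gave 0.50.

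The count of called genes was 3, with 555 genes at an unadjusted p under 0.05. It was 76 without a filter, 125 with the DESeq2 Wald test, 22 with limma-voom, and 0 to 1 with 1 mouse left out. List calls, 0 in the edgeR fit for all lists, became without a filter 1 for other epidermal keratins, 4 for inner root sheath, 1 for hair shaft, 2 for outer root sheath, 2 for stressed epidermis, 5 for EGF receptor and AP-1, 7 for fat, 1 for muscle, 1 for sebaceous, 2 for red cell and 4 for keratin-associated protein genes. With the DESeq2 Wald test they were 1 for other epidermal keratins (Krt79), 2 for outer root sheath (Lhx2 and Sox9), 1 for EGF receptor and AP-1 (Areg), 1 for cornified envelope (Flg) and 8 for fat genes. With limma-voom they were 2 for outer root sheath (Lhx2 and Sox9) and 5 for fat genes. Krt20, at -0.16, reversed to 0.43 and 0.42 without KO mouse 3 or 4 (-7.55 to 0.43 with 1 mouse left out), and Krt32, at -0.34, to 0.00060 without WT mouse 7 (-0.50 to 0.00060). The cause of these differences was not tested. Krt16 and Krt6b had the fewest counts of the members, 931 and 408 over all libraries. The part of depth in their zeros was not tested.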
